A study of Mus musculus with 97 samples.

Results

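The comparison set captured regions of cortex from vehicle-treated mice carrying human APOE4 against those from vehicle-treated mice carrying human APOE3. Its members were chosen by their titles, which name genotype, vehicle and cortex, and are 16 of the 97 libraries of the series: 8 APOE4 and 8 APOE3. Each library holds the probe tags that ultraviolet light released from a chosen region of a mouse brain section 8 µm thick, in the GeoMx Digital Spatial Profiler with its mouse Whole Transcriptome Atlas of 19962 gene targets. The study asked how the APOE allele bears on the response of older mice to combined chemotherapy, and these groups are its vehicle baseline. Both groups were human APOE knock-in mice described as older, and both received intraperitoneal vehicle, equal parts of dimethyl sulfoxide and phosphate-buffered saline. The other cortex libraries used beside them came from mice of the same genotypes given DD or DC, both with doxorubicin at 3 mg/kg per week, to which DD added docetaxel at 10 and DC added cyclophosphamide at 40 mg/kg per week. Ages and sexes were not given in the labels.

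Genotype and collection plate cannot be told apart. All APOE4 libraries were collected on 1 plate and all APOE3 libraries on another, 0 genotypes were on both plates, and the labels give 1 batch name for all. Each difference below is therefore a difference between the APOE4 plate and the APOE3 plate as much as between genotypes. The labels do not tie regions to animals, and any 2 libraries may share an animal, in which case the p-values over libraries below are too small. Within each group the 8 libraries occupied 4 runs of 2 adjacent wells, which served as a second unit. Libraries are numbered from 1 to 8 within a group as names only.

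Apolipoprotein E is the main lipid carrier that astrocytes secrete in the brain, and it delivers cholesterol to neurons through receptors of the LDL receptor family. People differ in the allele they carry, and APOE4 is the strongest common genetic risk factor for late-onset Alzheimer's disease, while APOE3 is the most frequent allele. In knock-in mice the coding sequence of the mouse gene is replaced by the human one, so that a probe for mouse Apoe does not report on the allele.

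Of the 57 genes with counts high enough to test, 12 (21.1%) differed between APOE4 and APOE3 vehicle cortex at an adjusted p under 0.05 (edgeR quasi-likelihood test, Benjamini-Hochberg adjustment over the 57). In APOE4, 8 (14.0%) were higher and 4 (7.02%) were lower. The higher genes were Elof1, Rgs19, Cyp2d12, Pcsk1, Olfr655, Inhbb, Gm46840 and Rhov, at log2 fold changes from 0.66 to 1.77. The lower genes were Lrr1, Mtch2, Ripply2 and Cd99, at log2 fold changes from -1.20 to -0.47. A further 45 tested genes did not pass, the unadjusted p was under 0.05 for 19 genes, and the median log2 fold change of all 57 was -0.013. Lrr1 was the only tested gene whose 8 APOE4 and 8 APOE3 libraries did not overlap (1 of 57, 1.75%). The means of the 4 runs did not overlap for 9 of 57 genes (15.8%), 7 of them among the 12: Lrr1, Cd99, Elof1, Rgs19, Pcsk1, Olfr655 and Gm46840.

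The libraries of the groups also differed in depth and background. The total count ran from 24333 to 36358 in APOE3 and from 36866 to 95612 in APOE4, a 2.08-fold difference in geometric means (two-sided exact permutation p = 1.554e-04 over libraries and 0.0286 over runs, each the smallest the design can give). The combined negative probe, a measure of background whose sequence matches no gene, read 1.06 to 1.36 in APOE3 and 1.55 to 3.96 in APOE4 (2.04-fold, with the same exact p values). The files hold no value below 1 in these libraries, and 80.8% ± 11.7 (SD, n = 8) of panel genes stood at that floor in APOE3 against 31.7% ± 18.1 (SD, n = 8) in APOE4. Summed counts of the 57 tested genes were 913 to 4181 in APOE3 and 2643 to 7581 in APOE4 (1.98-fold, exact p = 0.00793 over libraries and 0.0857 over runs). Relative to the tested counts, the background differed by less than the spread between libraries, with 0.585 ± 0.303 (SD, n = 8) negative-probe counts per 1000 tested counts in APOE3 and 0.548 ± 0.0313 (SD, n = 8) in APOE4 (exact p = 0.876). The part of these differences in the gene results was not tested beyond the scalings named beside them.

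**Figure D1:**
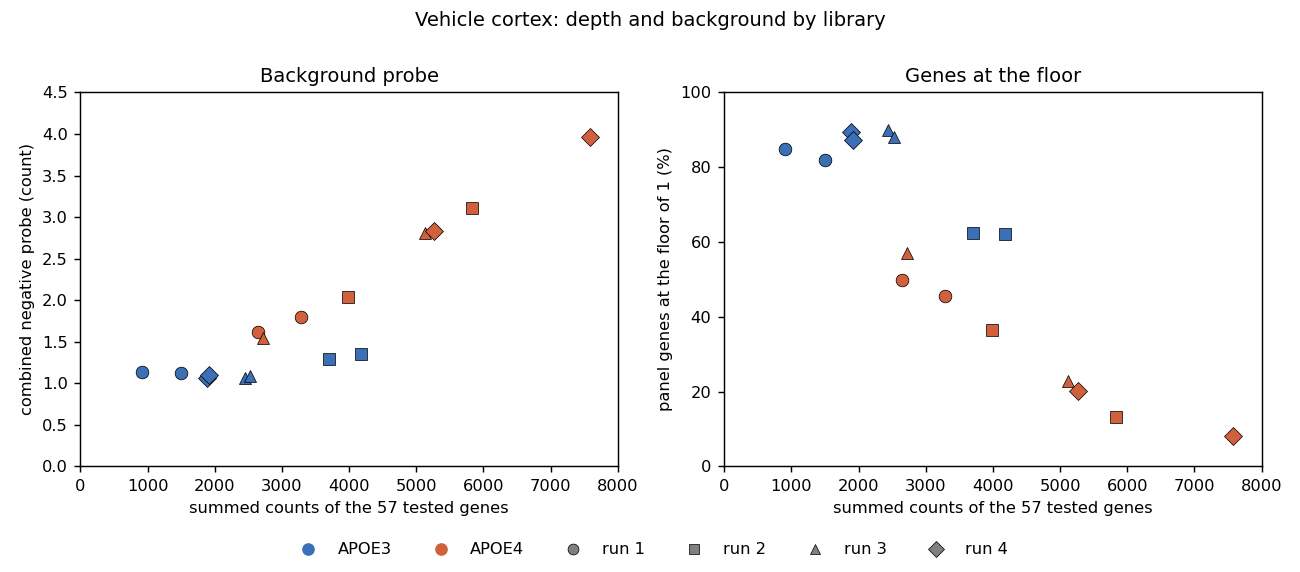
The combined negative probe (left, count) and the percentage of panel genes at the floor of 1 (right) are plotted against the summed counts of the 57 tested genes, 1 point per vehicle cortex library, with colour for genotype and shape for the run of wells. The negative probe reads 1.06 to 1.36 in the 8 APOE3 and 1.55 to 3.96 in the 8 APOE4 libraries, without overlap, while their tested counts overlap.

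Levels below are normalised counts, which are counts per 1000 counts of the tested genes after TMM scaling, and they compare libraries, not genes. The split of directions differed between settings. With DESeq2, which changes the scaling, the dispersions and the test together, 5 of 11 calls were higher, with upper-quartile scaling 10 of 12, with no TMM factors 13 of 14, and with Mtch2 left out of the scaling 6 of 15. With library sizes from each total over the floor, which was 5.24-fold higher in APOE4, the median of the 57 moved to -1.25 and 41 genes passed, 0 higher and 41 lower. In that scaling Elof1 and Rgs19 kept values above 0 (log2 0.58 and 0.33), and the other 6 higher genes turned below 0. With the negative probe as the library size, only Rgs19 and Elof1 passed. Lrr1 had the lowest log2 fold change among those of the 57 genes that were tested, in the reported fit, in all 17 other settings and in all 24 fits that left out a library or a run. Elof1 and Rgs19 were the 2 highest in the reported fit and in all 16 of those settings that could test them. Both had APOE3 mean counts under 5 and entered the reported fit mainly through cortex groups where they were higher. Their rank is therefore not read as a result.

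**Figure D2:**
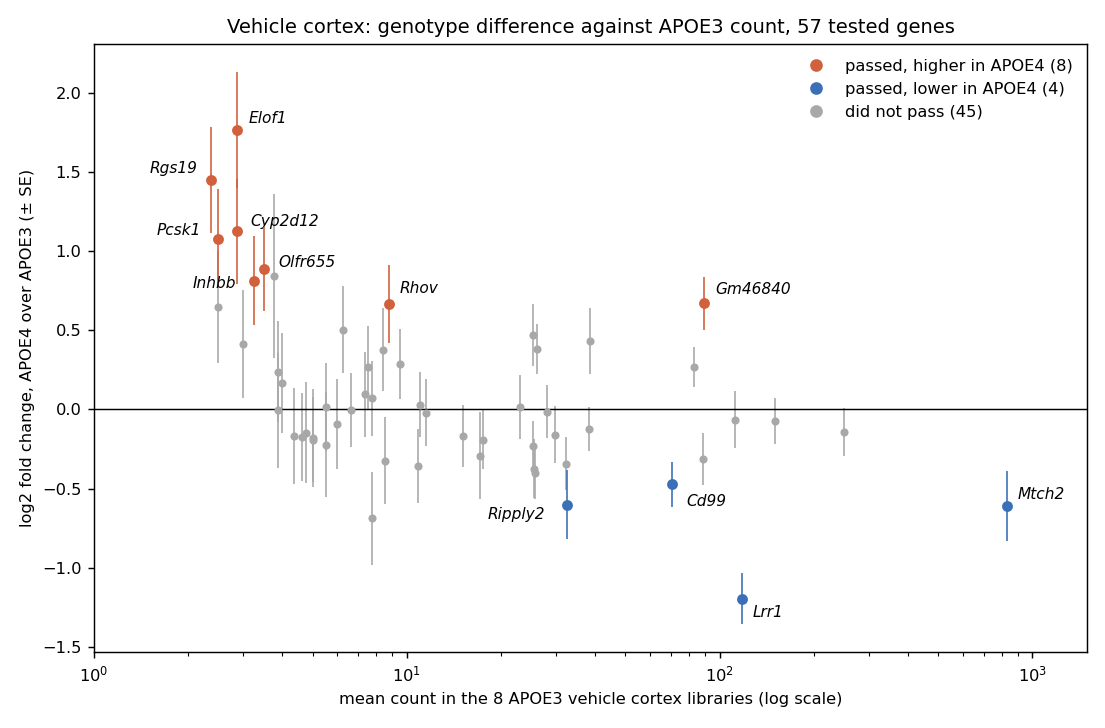
The log2 fold change of APOE4 over APOE3 in vehicle cortex, with its SE as bars, is plotted for the 57 tested genes against the mean count in the 8 APOE3 libraries on a log axis. Of the 8 higher genes, 6 lie at APOE3 mean counts under 5, and the 4 lower genes lie at mean counts over 20.

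Lrr1 recruits substrates to a cullin ubiquitin ligase, and in this role takes part in unloading the replicative helicase from chromatin. Its gene lies on chromosome 12 at 69168814 to 69179012 in mm10 and codes for a protein. Normalised counts in APOE3 libraries 1 to 8 were 76.5, 72.8, 60.9, 44.1, 50.8, 36.6, 69.7 and 78.1. In APOE4 libraries 1 to 8 they were 27.6, 24.3, 29.4, 21.1, 26.9, 26.8, 29.7 and 25.0. Every APOE4 library lay below every APOE3 library, and the APOE3 libraries spread more widely, with the lowest values in runs 2 and 3. The difference was 2.29-fold (log2 -1.20, SE 0.16, edgeR adjusted p = 1.85e-08). The unscaled counts were alike, with medians of 108 in APOE3 and 102 in APOE4, so that the difference is one relative to the deeper APOE4 libraries. Lrr1 lay far above background, with a median ratio to the negative probe of 98.7 in APOE3 and 46.0 in APOE4. Its log2 fold change stayed between -1.37 and -1.20 and passed in all 16 fits that left out a library, and it passed in 15 of the 17 other settings. Chic2, a palmitoylated membrane protein, was the other member of the list that held Lrr1, and it did not pass (log2 -0.31, SE 0.16, adjusted p = 0.160).

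Mtch2 is a protein of the outer mitochondrial membrane that inserts other proteins into it, encoded on chromosome 2 at 90847090 to 90866810. It took 34.7% ± 7.08 (SD, n = 8) of the tested counts in APOE3 and 26.7% ± 5.79 (SD, n = 8) in APOE4. Its normalised count was lowest at 256 and highest at 665 in APOE3, with a median of 419. In APOE4 the lowest, median and highest were 189, 255 and 424. The groups overlapped, and the 2 highest APOE3 values were both in run 3. The level was 1.53-fold lower in APOE4 (log2 -0.61, SE 0.22, edgeR adjusted p = 0.0389). On the log2 scale, 7 of 8 APOE4 libraries lay below the APOE3 mean. The call ended without APOE3 library 5 (log2 -0.55, adjusted p = 0.0967), APOE3 library 6 (log2 -0.49, adjusted p = 0.0936) or APOE4 library 1 (log2 -0.61, adjusted p = 0.0524). The call also stood in only 7 of the 17 other settings. It ended with upper-quartile scaling (log2 -0.57, adjusted p = 0.0589), no TMM factors (-0.38, 0.113), the 16 libraries alone (-0.58, 0.0601), counts summed over runs (-0.66, 0.283) and the run as a random block in limma-voom (-0.60, 0.0526), among others. Of the 4 mitochondrial proteins listed, 1 fell, Mtch2, and 0 rose, beside 7.02% lower and 14.0% higher of all tested genes. Coa5, which helps assemble cytochrome c oxidase, had a log2 fold change of 0.38 (SE 0.16, adjusted p = 0.0768). Fdx2, a ferredoxin of iron-sulfur cluster synthesis, had -0.40 (SE 0.17, adjusted p = 0.0768), and Tmem65, a protein of the inner membrane, had 0.17 (SE 0.31, adjusted p = 0.799).

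Ripply2, a transcriptional corepressor known from somite formation, is encoded on chromosome 9 at 87015537 to 87020441. Its normalised counts in APOE3 ran from 6.01 to 23.6 with a median of 13.6, and in APOE4 from 7.52 to 13.9 with a median of 8.73. All APOE4 values lay within the APOE3 range, and the 4 APOE3 libraries of runs 2 and 3 were the highest of the 16. The level was 1.52-fold lower in APOE4 (log2 -0.60, SE 0.22, edgeR adjusted p = 0.0389). The call ended without APOE3 library 3, 4, 5 or 6 (log2 -0.61, -0.59, -0.51 and -0.50, adjusted p = 0.0617, 0.0629, 0.120 and 0.0936). It stood in 6 of the 17 other settings. Of the 3 transcription regulators listed, Ripply2 fell and 0 rose, beside the same 7.02% and 14.0%. Hmga2, an architectural chromatin protein, had a log2 fold change of 0.43 (SE 0.21, adjusted p = 0.132). Olig2, which directs the formation of oligodendrocytes, had -0.02 (SE 0.21, adjusted p = 0.991).

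Cd99, a surface glycoprotein through which leukocytes cross the vessel wall, was also lower. Its normalised counts in APOE3 libraries 1 to 8 were 41.7, 36.7, 32.9, 28.9, 41.4, 38.3, 44.95 and 25.6. In APOE4 libraries 1 to 8 they were 29.0, 22.8, 25.1, 21.8, 25.8, 26.5, 31.7 and 24.1. APOE3 library 8 and library 4 reached into the APOE4 range, and all 8 APOE4 libraries lay below the APOE3 mean. The level was 1.39-fold lower (log2 -0.47, SE 0.14, edgeR adjusted p = 0.0113), a call kept without any single library but ended without APOE4 run 1 (log2 -0.40, adjusted p = 0.0780) or APOE4 run 3 (log2 -0.42, adjusted p = 0.0659). It stood in 10 of the 17 other settings. It ended with no TMM factors (log2 -0.25, adjusted p = 0.217), values of 1 read as 0 (-0.42, 0.137), counts summed over runs (-0.56, 0.365) and the run as a random block in limma-voom (-0.46, 0.0524), among others. The symbol's coordinates are not used here.

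Elof1 binds elongating RNA polymerase and acts in transcription-coupled DNA repair, and its gene lies on chromosome 9 at 22112986 to 22117195. The counts in APOE3 libraries 1 to 8 were 3, 1, 5, 6, 1, 3, 3 and 1, and in APOE4 libraries 1 to 8 they were 17, 12, 41, 13, 10, 18, 30 and 36. Scaled to 1000 tested counts, APOE3 ran from 0.524 to 4.17 with a median of 1.46, and APOE4 from 3.30 to 6.27 with a median of 4.68. The overlap came from APOE3 library 1 alone, the library with the lowest tested count. The fitted level was 3.40-fold higher in APOE4 (log2 1.77, SE 0.37, edgeR adjusted p = 2.75e-04), against an APOE3 level near the floor. Elof1 passed in all 16 fits that left out a library, at log2 fold changes of 1.55 to 1.81, and in 14 of the 16 other settings that tested it. It did not reach the filter in the 16 vehicle cortex libraries alone and entered the reported fit with the other cortex groups. The fits that left out a library share that filter. At the median, Elof1 lay at 2.70 times the negative probe in APOE3 and 7.87 times in APOE4. Of the 3 genes listed for genome maintenance and transcription elongation, Elof1 rose and 0 fell, beside 14.0% higher and 7.02% lower of all tested genes. Lig1, a DNA ligase of replication and repair, had a log2 fold change of 0.070 (SE 0.24, adjusted p = 0.991), and Mplkip, a protein linked to trichothiodystrophy, had 0.84 (SE 0.52, adjusted p = 0.254), the largest absolute value among the genes that did not pass.

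Rgs19, a GTPase-activating protein for inhibitory G protein alpha subunits, is encoded on chromosome 2 at 181688419 to 181694537. Its counts in APOE3 libraries 1 to 8 were 1, 1, 8, 3, 1, 1, 3 and 1, and in APOE4 libraries 1 to 8 they were 8, 5, 20, 17, 10, 18, 11 and 25. In 5 of the 8 APOE3 libraries the count was at the floor, and in 0 of the APOE4 libraries. Normalised counts ran from 0.524 to 1.97 in APOE3 and from 1.52 to 4.32 in APOE4, and APOE4 library 2 was the only one within the APOE3 range. The fitted log2 difference was 1.45 (SE 0.33, edgeR adjusted p = 9.94e-04), against an APOE3 level at background. Its median was 0.931 times the negative probe in APOE3 and 6.35 times in APOE4, and Rgs19 did not reach the filter in the 16 vehicle cortex libraries alone. It passed in 14 of the 16 other settings that tested it. Of the 5 leukocyte genes listed, 2 passed, Rgs19 higher and Cd99 lower, beside 21.1% of all tested genes. The others were Gimap4, a GTPase of lymphocytes (log2 -0.29, SE 0.27, adjusted p = 0.530), Lat, an adaptor of T cell receptor signalling (0.65, SE 0.36, adjusted p = 0.181), and the chemokine Ccl27a (-0.0040, SE 0.36, adjusted p = 0.991).

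Both listed genes of secreted signals, Pcsk1 and Inhbb, passed as higher, beside 14.0% of all tested genes. Both are among the 15 tested genes with an APOE3 mean count under 5, of which 6 were higher and 0 lower. The list was chosen with earlier results of these data known, so this count is not read as a result. Pcsk1 encodes a prohormone convertase of neurons and endocrine cells and lies on chromosome 13 at 75089420 to 75134861. Its counts were 2, 1, 6, 2, 1, 2, 3 and 3 in APOE3 libraries 1 to 8 and 10, 12, 13, 12, 11, 10, 12 and 11 in APOE4 libraries 1 to 8. The APOE4 counts were nearly equal although the depth of those libraries varied, so the normalised count was lowest in the deepest APOE4 library, at 1.65, and within the APOE3 range of 0.524 to 2.78. APOE4 libraries 3, 6 and 7 also lay within that range, at 1.99, 2.21 and 2.49. The fitted level of Pcsk1 was 2.11-fold higher in APOE4 (log2 1.08, SE 0.31, edgeR adjusted p = 0.0113), and the call ended without APOE3 library 4 (log2 0.85, adjusted p = 0.0672). Inhbb, the beta B subunit of activin and inhibin, is encoded on chromosome 1 at 119415463 to 119422248. Its normalised counts were 0.652 to 2.78 with a median of 1.63 in APOE3, and 2.14 to 3.63 with a median of 2.95 in APOE4. The 2 APOE3 libraries of run 1 reached into the APOE4 range and the other 6 did not. The fitted level was 1.76-fold higher (log2 0.81, SE 0.28, edgeR adjusted p = 0.0389). Inhbb passed in only 2 of the 16 fits that left out a library, without APOE3 library 2 or 6, and its log2 fold change ran from 0.60 to 0.82 over the 16; it passed in 3 of the 15 other settings that tested it, and Pcsk1 in 9 of 15.

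The long non-coding RNA gene Gm46840, on chromosome 4 at 3231182 to 3258873, was the only higher gene with a mean count over 20 in APOE3. Its normalised counts in APOE3 libraries 1 to 8 were 51.5, 26.7, 36.4, 67.0, 31.97, 54.0, 39.7 and 41.7. In APOE4 libraries 1 to 8 they were 66.3, 69.3, 71.1, 91.9, 59.2, 68.8, 64.3 and 65.0. APOE3 library 4 alone reached into the APOE4 range. The level was 1.59-fold higher in APOE4 (log2 0.67, SE 0.17, edgeR adjusted p = 0.00231) and passed in all 16 fits that left out a library and in 12 of the 17 other settings. Gm46840 lay at 60.7 times the negative probe in APOE3 and 112 times in APOE4, at the medians. Over the 49 cortex libraries, after removing group means, its level was most like those of Hmga2 (r = 0.754), Xrn1 (r = 0.729) and Erlin2 (r = 0.511), a description over libraries that share plates and scaling.

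Cyp2d12, a cytochrome P450 encoded on chromosome 15 at 82555043 to 82559413, had a fitted level 2.18-fold higher in APOE4 (log2 1.12, SE 0.33, edgeR adjusted p = 0.0113). Its counts were 1 to 5 in APOE3 and 4 to 24 in APOE4, and the normalised ranges overlapped widely, at 0.524 to 4.17 against 1.43 to 5.31. The call ended without APOE3 library 4 (log2 0.87, adjusted p = 0.0629) or APOE4 library 6 (log2 0.87, adjusted p = 0.0518). Olfr655, an olfactory receptor gene on chromosome 7 at 104596253 to 104597179, had a fitted level 1.85-fold higher (log2 0.89, SE 0.26, edgeR adjusted p = 0.0171), with counts of 1 to 8 in APOE3 and 9 to 21 in APOE4. Its call ended without APOE3 library 5, 6 or 7 or APOE4 library 3, 5 or 8, where the log2 fold change was 0.67 to 0.81. Rhov, a small GTPase encoded on chromosome 2 at 119269201 to 119278008, was 1.59-fold higher (log2 0.66, SE 0.25, edgeR adjusted p = 0.0408). Its normalised counts spread from 1.39 to 7.96 in APOE3 and lay between 5.08 and 8.63 in APOE4. The call stood in 1 of the 16 fits that left out a library, that without APOE3 library 4, with log2 fold changes of 0.48 to 0.86 over the 16. In the other settings that tested them, Cyp2d12 and Olfr655 each passed in 10 of 16 and Rhov in 6 of 17.

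**Figure D3:**
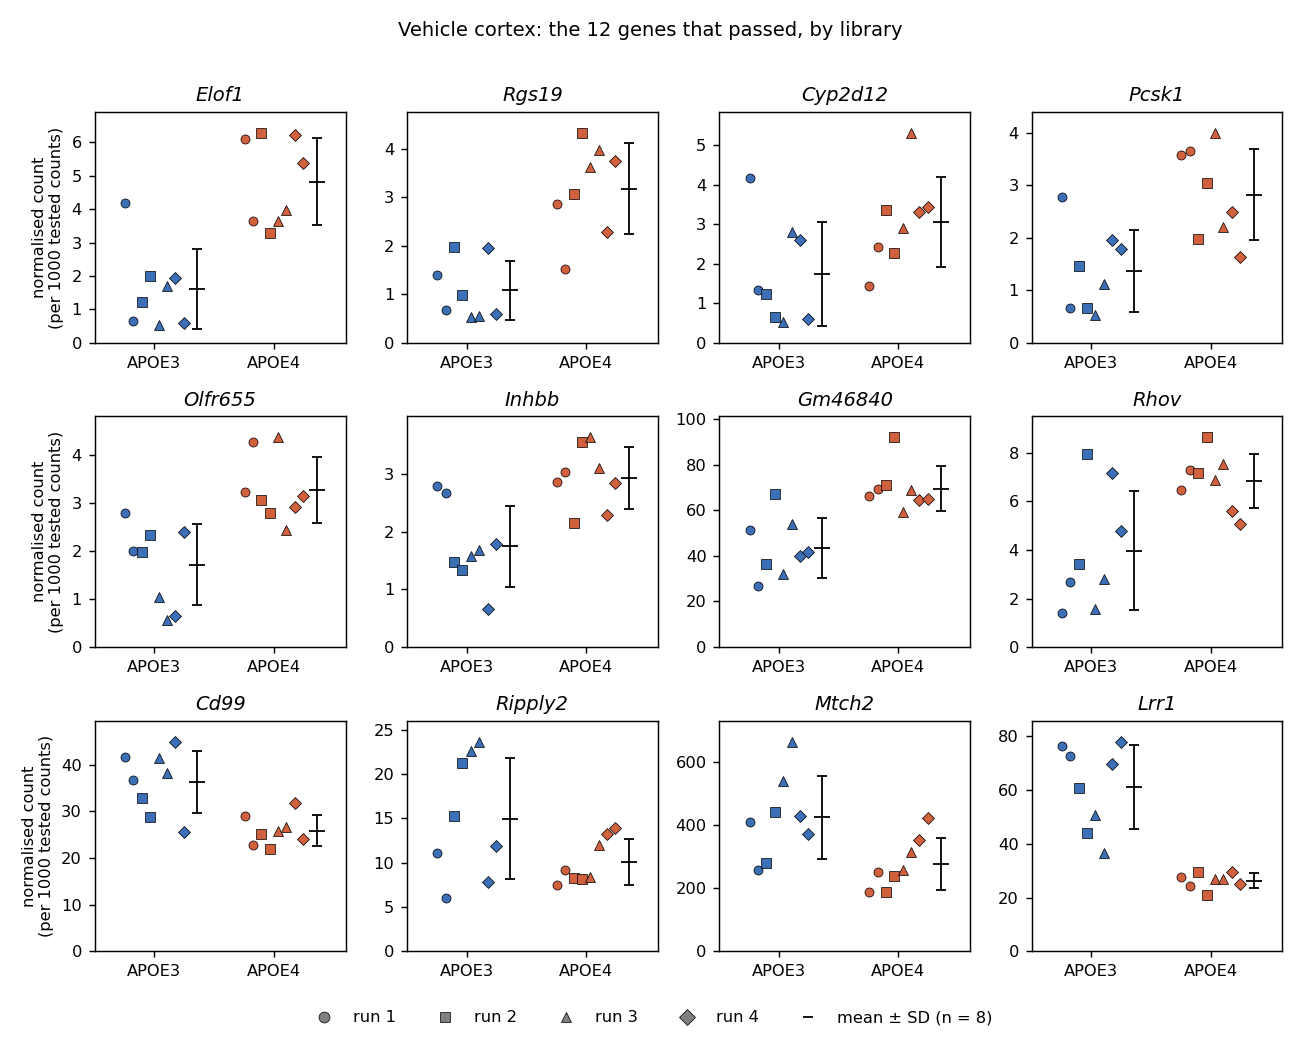
Normalised counts (per 1000 tested counts, linear axes from 0) of the 12 genes that passed are shown for each of the 8 APOE3 and 8 APOE4 vehicle cortex libraries, with shapes for the 4 runs of wells and black bars for the mean ± SD. Lrr1 is the only gene without overlap, at 36.6 to 78.1 in APOE3 and 21.1 to 29.7 in APOE4, while all APOE4 values of Ripply2 lie within the APOE3 range.

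The filter on low counts looked at all 6 cortex groups, so a gene near the floor in APOE3 vehicle cortex entered the test mainly through groups where it was higher. That bears on the 15 tested genes with an APOE3 mean count under 5, among them Elof1, Rgs19, Cyp2d12, Pcsk1, Olfr655 and Inhbb. This leaves little room for a lower call among them, and their number is not read as a result. The fitted folds of these 6 genes are against a level near the floor of 1 and are not measured ratios. Of the 21 genes with 5 to 20 counts, 1 was higher and 0 lower, and of the 21 genes over 20 counts, 1 was higher and 4 were lower. When values of 1 were read as 0, 98 genes were tested, 9 passed, 8 of them higher, and Elof1, Rgs19, Pcsk1, Cyp2d12, Olfr655, Gm46840 and Lrr1 were among them. With 1 subtracted from every value, 12 of 62 genes passed, all 12 the same ones. With the negative probe subtracted, 12 of 53 passed, 8 of them the same.

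The remaining tested genes of known role did not pass in the reported fit, but their SEs do not cover the choice of scaling. With no TMM factors, Xrn1, Tmed2 and Tysnd1 passed as higher, as did Coa5 and Hmga2. With Mtch2 left out of the scaling, Erlin2 passed as lower, as did Fdx2 and Chic2. In the fit of the 32 vehicle libraries, cortex values were 0.72 for Xrn1, 0.79 for Tmed2 and 0.55 for Tysnd1 (edgeR adjusted p = 0.0126, 0.0420 and 0.00121). The values below are from the reported fit. Among RNA decay factors, the exoribonuclease Xrn1 had a log2 fold change of 0.47 (SE 0.20, adjusted p = 0.0768) and Trir -0.12 (SE 0.14, adjusted p = 0.595). In the secretory pathway, Erlin2, a protein of lipid-raft-like domains of the endoplasmic reticulum, had -0.37 (SE 0.19, adjusted p = 0.146), and Tmed2, a cargo receptor of transport vesicles, had 0.50 (SE 0.27, adjusted p = 0.181). Of the 5 neuronal genes listed, 4 were tested and 0 passed, with an edgeR unadjusted p over 0.05 for each: Ctxn1 (-0.16, SE 0.18), Calm2, a calmodulin gene (0.27, SE 0.26), Marcks, an actin-binding kinase substrate (0.030, SE 0.21), and Sprn, a prion-like protein (-0.19, SE 0.19). Actb, Ubb and Ptms, abundant in most cells, had 0.017 (SE 0.28), -0.093 (SE 0.28) and -0.15 (SE 0.32). Tysnd1, a peroxisomal protease, had 0.27 (SE 0.13, adjusted p = 0.132) and Pcbd2, a pterin dehydratase, -0.17 (SE 0.20, adjusted p = 0.613). The predicted genes Gm10265, Gm52523 and Gm33888 had -0.14 (SE 0.15), -0.075 (SE 0.15) and -0.065 (SE 0.18).

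The pathways for which the APOE alleles are best known could not be compared at this depth. Mouse Apoe counts were 1 to 4 in both groups, with 7 of 8 APOE3 and 5 of 8 APOE4 libraries at the floor, and the median ratios to the negative probe were 0.918 and 0.632. Of the 34 genes listed for APOE, lipoprotein and cholesterol transport, 0 stood above 2 times the negative probe at the median of either group. The same held for the 12 markers of homeostatic microglia and the 14 of disease-associated microglia, among them Aif1 at 0.941 and 0.842 times. Gfap, the astrocyte filament protein, lay at 0.931 and 0.869 times, and Mbp, the myelin basic protein, at 0.931 and 1.15 times. Over 24 lists with 292 members, 287 of them on the panel, 7 members exceeded 2 times the negative probe in APOE3 and 12 in APOE4, and Olig2 was the only one with counts high enough to test. In a fit of all 19962 genes without the low-count filter, 0 of the 287 passed with edgeR, beside 6 of all 19962 (0.0301%), and 21 (7.32%) had an unadjusted p under 0.05, beside 716 (3.59%) of all genes. The median log2 fold change of the 287 was 0.36, beside 0.33 for all genes. Most of the 287 lay at background in APOE3, where the libraries were shallower, so neither these shares nor this median is read as a result.

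The regional label could not be checked at this depth. Of the 13 cortex layer markers on the panel, 0 exceeded 2 times the negative probe at the median in APOE3 and 1 in APOE4. Of the 12 hippocampus markers, 0 did in either group. Slc17a7, a vesicular glutamate transporter of excitatory neurons, was at 1.81 times the negative probe in APOE3 and 2.04 times in APOE4, and it is not a marker on which to tell cortex from hippocampus. Of the 19962 panel genes, 83 exceeded 2 times the negative probe at the median in APOE3, 208 in APOE4 and 70 in both. In such captured regions, fewer cells of a type and less RNA per cell cannot be told apart.

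Without the filter on low counts, 6 of the 19962 genes passed (0.0301%), 3 higher and 3 lower, and 0 of them were among the 57 tested. In that fit Lrr1 had a log2 fold change of -0.77 and an adjusted p of 0.904, and Elof1 2.11 with 0.842. With a minimum count of 5 in place of 10, 253 genes were tested and 4 passed, of which Lrr1, Rgs19 and Elof1 were among the 12. In the 16 vehicle cortex libraries fitted alone, 34 genes were tested and 3 passed, Lrr1, Cd99 and Gm46840, while Elof1 and Rgs19 did not reach the filter.

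Using the run of wells as the unit left fewer calls. With counts summed over the 2 libraries of a run, 4 against 4, 4 of 169 genes passed, among them Lrr1 (log2 -1.28, edgeR adjusted p = 0.00133), Elof1 (1.69, 0.00133) and Rgs19 (1.35, 0.0174). With the run as a random block in limma-voom, where the libraries of a run had a consensus correlation of 0.247, 6 genes passed: Lrr1, Rhov, Gm46840, Olfr655, Rgs19 and Elof1. Without the block, limma-voom called 12, of which 10 were among the reported 12. Elof1, Rgs19 and Olfr655 had APOE3 mean counts under 5 and entered these tests mainly through groups where they were higher. Their passing with the run as the unit is therefore not read as a result.

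The same genotype contrast was examined in cortex of mice given chemotherapy, in libraries on the same plates. After DD 12 of 57 genes passed (21.1%), and after DC 14 of 57 (24.6%). Of the 12 vehicle genes, 7 also passed in the same direction after DD: Lrr1, Elof1, Rgs19, Cyp2d12, Pcsk1, Olfr655 and Inhbb. After DC, 2 did, Lrr1 and Rgs19. All of these except Lrr1 had an APOE3 vehicle mean count under 5. They entered the test mainly through cortex groups where they were higher, which leaves little room for a lower call after DD or DC. Their repeated passing is therefore not read as a result. The sign was the same for 12 of 12 genes after DD and for 11 of 12 after DC, where Cd99 was the exception. The share of all 57 genes with the same sign was not counted. Every contrast compares the same plates, so these sign counts are not read as a result about the 12. Lrr1 had log2 fold changes of -1.48 (SE 0.16) after DD and -1.62 (SE 0.16) after DC, and Rgs19 had 1.55 (SE 0.27) and 1.75 (SE 0.37). In the DD and DC libraries Lrr1 again did not overlap between genotypes: 44.7 to 79.1 against 13.6 to 29.0 after DD, and 54.6 to 112.9 against 17.5 to 32.6 after DC. How many of the 57 genes did not overlap there was not counted. Chic2 did not overlap after DC either, at normalised counts of 41.3 to 81.9 in APOE3 against 17.2 to 33.1 in APOE4. The lack of overlap is therefore not read as particular to Lrr1. Gm46840 had 0.23 (SE 0.16, adjusted p = 0.339) after DD and 0.26 (SE 0.17, adjusted p = 0.267) after DC. Mtch2 had -0.45 (SE 0.22, adjusted p = 0.129) and -0.14 (SE 0.22, adjusted p = 0.732).

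**Figure D4:**
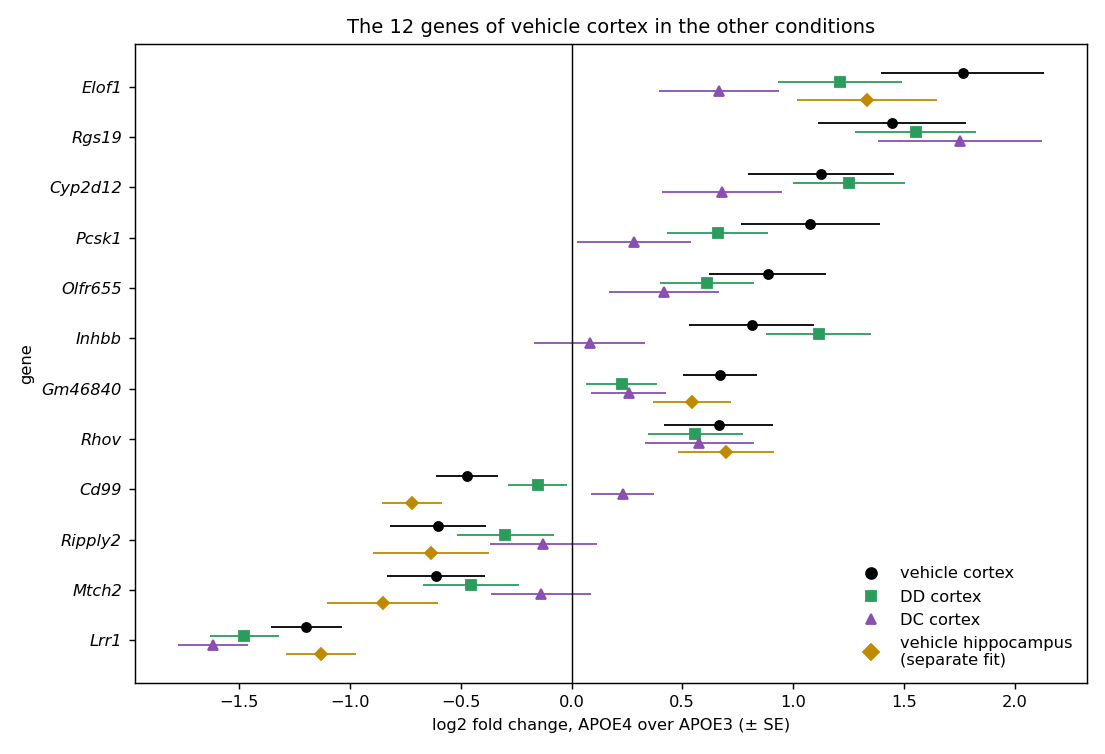
Log2 fold changes of APOE4 over APOE3 with SE bars are shown for the 12 genes of vehicle cortex, in vehicle, DD and DC cortex and, where tested, in vehicle hippocampus, which comes from a separate fit with its own scaling. Lrr1 lies between -1.62 and -1.13 in all 4, and Cd99 lies below 0 except after DC, where it is 0.23.

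Tests of the differences between these contrasts found few. For DD, 0 of 57 genes (0.00%) had a genotype difference that departed from that in vehicle by edgeR, 1 had an unadjusted p under 0.05, and DESeq2 also called 0. For DC, 2 of 57 did (3.51%), with 8 at an unadjusted p under 0.05. Cd99 moved from a log2 fold change of -0.47 in vehicle to 0.23 (SE 0.14) after DC, an interaction of 0.70 (SE 0.20, edgeR adjusted p = 0.0236). Its mean normalised count fell in APOE3 from 36.3 ± 6.71 in vehicle to 24.1 ± 5.42 after DC, and was 25.9 ± 3.26 and 28.4 ± 5.84 in APOE4 (SD, n = 8 each). Chic2 moved from -0.31 to -1.12 (SE 0.16), an interaction of -0.80 (SE 0.23, edgeR adjusted p = 0.0236). The Cd99 call ended without vehicle APOE3 library 1, 2 or 7 or any of vehicle APOE4 libraries 3 to 8 (log2 0.60 to 0.72). The Chic2 call ended without vehicle APOE3 library 1, 2 or 7 or vehicle APOE4 library 3, 4, 7 or 8 (log2 -0.87 to -0.73).

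In vehicle hippocampus, fitted with vehicle cortex over 32 libraries and 37 genes, 12 genes passed (32.4%). Of the 12 cortex genes, 7 were tested there. Lrr1 had log2 fold changes of -1.13 (SE 0.16, edgeR adjusted p = 7.70e-07) in hippocampus and -0.90 (SE 0.15) in cortex of this fit. Elof1 had 1.33 (SE 0.32) and 2.02 (SE 0.33), Rhov 0.70 (SE 0.22) and 0.97 (SE 0.23), and Gm46840 0.55 (SE 0.18) and 0.94 (SE 0.18). In hippocampus the counts of Elof1 were 2 to 9 in APOE3 and 11 to 30 in APOE4. It entered this fit mainly through the APOE4 groups, so its higher values here are not read as a result. Mtch2 had -0.85 (SE 0.25) and -0.37 (SE 0.25), Cd99 -0.72 (SE 0.14) and -0.19 (SE 0.12), and Ripply2 -0.63 (SE 0.26) and -0.35 (SE 0.27). The scaling of this fit placed the median of its 37 genes at 0.23 in cortex and -0.041 in hippocampus, so the cortex values stand higher than in the fit above. The genotype difference departed between regions for 2 of 37 genes (5.41%), Gm52523 by 0.64 (SE 0.15, edgeR adjusted p = 0.00546) and Tysnd1 by 0.69 (SE 0.19, adjusted p = 0.0164), where the median of all 37 was 0.37. Both turned below 0 under upper-quartile scaling, at -0.11 and -0.043.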

How the data were processed

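The authors deposited expected counts per probe target of the GeoMx mouse Whole Transcriptome Atlas, unscaled, for 97 libraries; the counting software is not given in the sources used here, and the submitters' processing notes name mm10. A value of 1 is the lowest in these libraries, which is read as a count of 0 written as 1. Values were rounded, and the negative probe row (0.00365% to 0.00464% of totals) stayed out of the tests. The 49 cortex libraries, in 6 groups, were fitted with edgeR 4.0.16 in R 4.3.3 (TMM, filterByExpr minimum count 10, quasi-likelihood F test, Benjamini-Hochberg over 57 genes, threshold 0.05), and the 32 vehicle libraries likewise. SEs derive from the F statistic. DESeq2 1.42.0 and limma 3.58.1 were alternatives, with other scalings, filters, floors, run sums and leave-outs. The code was tested on simulated data. Library quantities were compared by exact permutation. No library was left out.

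Genes named are all that passed, tested genes of the role lists or of high level, and set markers; a marker the rule names is not reported here, and counts include it. The members and lists were chosen with earlier results of these data known. Coordinates are from RefSeq (GRCm38, the mm10 assembly), which held 56 of the 57 tested symbols. Counts limit precision: the median SE was 0.24 on the log2 scale.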

Additional observations from a re-analysis of the deposited data

Results flagged for a closer look

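Among 30 sets of 8 libraries (each of the 12 genes and 3 library quantities, per group), 2 held a library far from its group, where chance alone gives about 1 in 20. Elof1 stood at a normalised count of 4.17 in APOE3 library 1, from 3 counts, against 0.524 to 1.99 in the other 7. Gm46840 stood at 91.9 in APOE4 library 4, against 59.2 to 71.1 in the other 7.

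The genotype difference departed between vehicle and DC cortex for Cd99 (interaction log2 0.70) and Chic2 (-0.80), each at an edgeR adjusted p of 0.0236. It departed between vehicle cortex and vehicle hippocampus for Gm52523 (interaction log2 0.64, edgeR adjusted p = 0.00546) and Tysnd1 (0.69, adjusted p = 0.0164).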

How the results depend on the processing

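Of 12 calls in the reported fit, the count moved to 41 with library sizes from the total over the floor, 2 with the negative probe as the library size, 4 with a minimum count of 5, 6 with no low-count filter, 3 in the 16 vehicle cortex libraries alone, 4 with counts summed over runs and 6 with a random block for the run. The count was 7 to 14 over the 16 fits that left out a library (lowest without APOE3 library 5) and 9 to 14 over the 8 that left out a run, an alternative chosen after seeing the data. With the scaling over the floor the signs turned for Rhov (-0.43), Inhbb (-0.34), Pcsk1 (-0.0056), Cyp2d12 (-0.20), Gm46840 (-0.49) and Olfr655 (-0.18); the median of all 57 was then -1.25. The other medians that moved by over 0.1 were -0.12 with DESeq2, 0.18 with no TMM factors and -0.14 without Mtch2 in the scaling. The negative probe as a covariate left 10 calls, and leaving out the 6 cortex libraries with a negative probe of 5 or more, 0 of them vehicle, left 11.

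The DC interaction went from 2 calls to 1 with upper-quartile scaling, 0 with values of 1 read as 0 and 0 with counts summed over runs, and was 0 to 2 over single leave-outs. The region interaction went from 2 to 0 with DESeq2, 1 with upper-quartile scaling, 0 with values of 1 read as 0, 0 with summed runs and 0 with all genes of either fit (added after seeing the data), and was 0 to 4 over single leave-outs (4 without APOE4 hippocampus library 6). Upper-quartile scaling turned Gm52523 to -0.11 and Tysnd1 to -0.043. The causes were not tested. The DD interaction stayed at 0 calls in every setting run. The exact p of the tested count rose from 0.00793 over libraries to 0.0857 over runs. No paired analysis was possible because the labels give no replicate numbers. Depth left 57 genes to test, 15 of them with an APOE3 mean count under 5, near the floor that holds most APOE3 values.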

Other observations

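Hikeshi, a carrier that brings heat shock protein into the nucleus, did not reach the low-count filter of the 57 genes and was singled out after its values were seen. Its counts were 1 to 2 in the 8 APOE3 vehicle cortex libraries and 7 to 46, with a median of 12, in the 8 APOE4 libraries. These counts are not scaled for depth, and library totals were 2.08-fold higher in APOE4. How many panel genes lacked overlap in unscaled counts was not counted. At the medians this was 0.904 times the negative probe in APOE3, which is background, and 4.42 times in APOE4. It reached the looser filters mainly through APOE4 and was chosen for this pattern, so no fold or p is given.

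In the other APOE3 cortex groups its counts were 1 to 7 after DD and 1 to 3 after DC, and in APOE4 they were 6 to 31 and 5 to 26. In vehicle hippocampus the counts were 1 to 4 in APOE3 and 2 to 15 in APOE4, with median ratios to the negative probe of 1.17 and 2.81. The APOE4 and APOE3 libraries lay on different plates throughout.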
